A study of Rattus norvegicus with 69 samples.

Results

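The genes of retinoid metabolism described here were read from the deposited rat liver counts by their symbols, Aldh1a1, Aldh1a7, Adh4, Rbp4, Rdh10, Dhrs3, Lrat, Cyp26a1 and Bco1, and all 9 were among the 38513 genes of the table and among the 16676 that passed the filter on low counts. Poly(A) RNA of 69 rat livers was sequenced, in 2 batches named in the labels. There were 14 livers after RYGB (Roux-en-Y gastric bypass), 8 labelled BWM, 6 labelled Lean and 12 after sham surgery. Of the drug arms, 11 had liraglutide+PYY3-36, 5 PYY3-36 alone, 5 liraglutide alone and 8 saline. Liraglutide is an analogue of the gut hormone GLP-1, and PYY3-36 is a gut hormone that lowers food intake. Rats of the surgical and drug arms were adult Wistar males made obese by a high-fat diet, which afterwards could choose between high-fat and low-fat food. Liraglutide was injected and PYY3-36 came from an osmotic minipump, with saline in place of the missing agent, so that saline rats had both routes. The labels give BWM and Lean without explanation, and the study's text does not describe these rats, so that their diet, surgery and sex are not stated here. Some liraglutide+PYY3-36 and saline rats of the study had a longer feeding period, and the labels do not say which libraries these are. Batch A holds 6 liraglutide+PYY3-36 and 3 saline libraries. These are as many as had the longer feeding, so that feeding and batch cannot be told apart in these groups. BWM and Lean lie in batch A alone and PYY3-36 and liraglutide alone in batch B alone, and the other 4 groups lie in both.

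The liver takes up dietary vitamin A, and its stellate cells store it as retinyl esters, which LRAT makes from retinol. Hepatocytes send retinol into the blood bound to RBP4. Retinol is oxidised to retinal, a step that RDH10 and alcohol dehydrogenases such as ADH4 carry out and that DHRS3 runs in the opposite direction, and BCO1 makes retinal from beta-carotene. ALDH1A enzymes then oxidise retinal to retinoic acid, the ligand of the nuclear retinoic acid receptors, and CYP26A1 breaks retinoic acid down and is itself induced by it.

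Of these genes, Aldh1a1 was higher after RYGB than after sham surgery and higher than in BWM or Lean rats and, in a call that single libraries decided, saline rats, at a mean of 320 CPM (the read count scaled to the size of its library) in RYGB against 146 CPM in sham livers. Aldh1a7 passed the test once, in RYGB versus BWM, at very low counts. The other 7 genes passed the test in no pair of groups, and none of the 9 passed it in a drug comparison with saline. Dhrs3, Rdh10, Adh4 and Aldh1a7 differed between the 2 batches, and Lrat did so only when 6 libraries that stood apart were included.

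The Aldh1a1 gene lies on chromosome 1 (238222689 to 238264381, plus strand, build Rnor_6.0, the build of the counts), and Cyp26a1 on the same chromosome (256382861 to 256386729, plus strand). Retinoic acid is known to induce Cyp26a1, and Lrat and Dhrs3 are also on the list of retinoic acid target genes followed below. Only the promoters of Aldh1a1, the gene that moved with the surgery, and of Cyp26a1 are shown. Both are the 250 bases before the annotated start from RefSeq on the newer build GRCr8, so that their coordinates cannot be set beside those of the counts, and 7 of the 9 genes had a promoter in that table. Hexamers of the kind that nuclear receptors bind were searched on both strands, 4 in all. DR5, which is any 2 of them in the same direction with 5 bases between, and DR2, with 2 bases between, were searched too. Capitals mark the match, which is the DR5 in Cyp26a1 and the reverse complement of GGGTCA in Aldh1a1.
Cyp26a1 (GRCr8, chr1:244883572-244883821, plus strand): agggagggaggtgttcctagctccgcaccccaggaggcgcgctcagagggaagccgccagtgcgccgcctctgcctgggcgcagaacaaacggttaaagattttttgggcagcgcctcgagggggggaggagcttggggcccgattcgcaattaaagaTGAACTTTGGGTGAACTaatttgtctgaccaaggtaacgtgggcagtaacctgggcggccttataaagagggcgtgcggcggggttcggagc
Aldh1a1 (GRCr8, chr1:227537370-227537619, plus strand): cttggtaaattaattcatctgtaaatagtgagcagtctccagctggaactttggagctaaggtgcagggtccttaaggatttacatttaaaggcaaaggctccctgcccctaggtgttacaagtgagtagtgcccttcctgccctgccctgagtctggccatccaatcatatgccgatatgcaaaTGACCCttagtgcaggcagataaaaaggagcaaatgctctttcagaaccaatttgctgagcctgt

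Read on the opposite strand the Cyp26a1 match is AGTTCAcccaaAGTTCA, from 92 to 76 bases before the start, with AGTTCA at each end. A DR5 was present in 0.326% of all 33469 promoters searched over the same length. A DR2 was present in 0.137% of these promoters and in none of the members searched. The single hexamers were common, with GGGTCA in 11.9%, AGGTCA in 14.1%, AGTTCA in 12.2% and GGTTCA in 9.77% of promoters, and they were found in 4 of the 7 members, Aldh1a1, Adh4, Cyp26a1 and Bco1. These are matches of letters in a short window and say nothing of binding in these livers.

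The libraries held 9110860 to 27559144 counts (median 21027325). The hepatocyte markers were abundant in every library, Alb at 38425 to 234244 CPM. For single hepatocyte markers, here and below, CPM are of the library total, without the TMM scaling used elsewhere. In all, 6 batch B libraries stood apart on the first principal component, at 112 to 158.9 against 11.1 to 80.03 in the other 22 batch B libraries, and the component held 36% of the variance. They were sham replicate 12, PYY3-36 replicate 5, liraglutide replicate 4 and liraglutide+PYY3-36 replicates 8, 9 and 11, so that no RYGB, BWM, Lean or saline library was among them. Among hepatocyte markers, Serpina1, Tf and Hnf4a, chosen after their values were seen, had medians of 2798, 8263 and 107 CPM in these 6 and 10982, 21618 and 389 CPM in the other 63 libraries. Apoa1 (2350 against 1814 CPM) and Fga (5195 against 4159 CPM) had higher medians in the 6, and Alb was near equal (100920 against 102498 CPM). The remaining hepatocyte markers of the list had lower medians in the 6 on this scale. TMM factors of the 6 were 0.624 to 0.846, so that TMM scaling raises their values. Summed with TMM scaling, the hepatocyte markers had medians of 188202 CPM in the 6 and 168650 CPM in the other 63 libraries. The summed CPM of 15 target genes of the nuclear receptors CAR and PXR was 19996 to 85366 in these 6 and 5431 to 15781 in the other 63 libraries. This sum leans on 1 gene, Cyp3a2. In the PYY3-36 group, which holds the library at 85366 CPM, Cyp3a2 averaged 18371 CPM of a mean sum of 24072 CPM. In saline it averaged 3953 CPM of 8881 CPM. Batch B differed from batch A in 60.6% of all genes tested. In bulk liver RNA, fewer cells of a type and less RNA per cell cannot be told apart. The labels give the libraries as separate samples and say no more of their origin, so that p-values measure the spread between these samples.

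**Figure D1:**
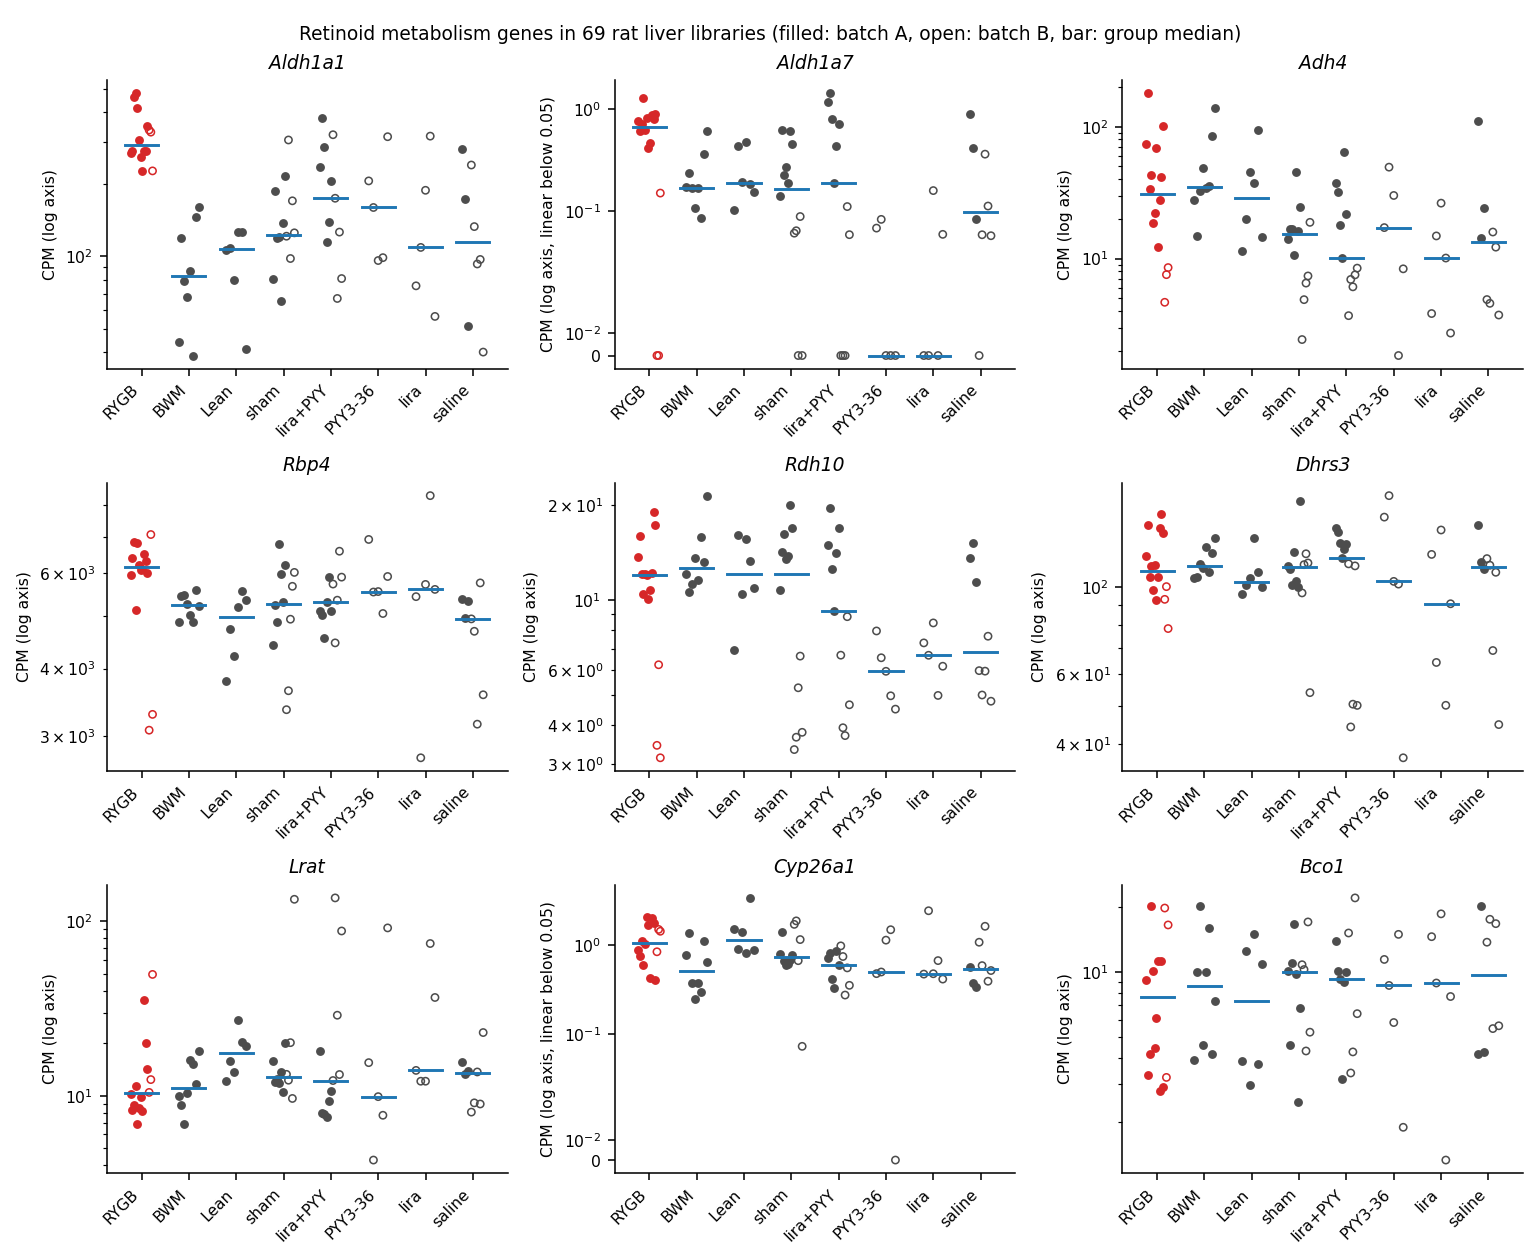
Level of each of the 9 genes in CPM (log axis, for Aldh1a7 and Cyp26a1 linear below 0.05) in the 69 libraries by group (lira: liraglutide, PYY: PYY3-36), with batch A filled, batch B open, RYGB in red and a bar at the group median. Aldh1a1 lies at 227 to 477 CPM in RYGB and at 65.2 to 305 CPM in sham, and the open points of Aldh1a7, Adh4 and Rdh10 mostly lie lower than the filled ones.

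Compared per kilobase of exon and averaged over all libraries, the 9 genes spanned a wide range of levels. Rbp4 stood at 5904 CPM per kilobase, rank 15 of the genes tested. Aldh1a1 at 86.1, Dhrs3 at 66.2 and Adh4 at 22.1 CPM per kilobase followed. Rdh10 was at 9.81, Bco1 at 4.87 and Lrat at 3.87 CPM per kilobase. Cyp26a1 at 0.517 and Aldh1a7 at 0.471 CPM per kilobase were lowest, with medians of 17 and 4 counts a library. Rbp4 varied by 3.04-fold between the lowest and the highest of the 69 libraries and Dhrs3 by 4.60-fold, while Aldh1a1 varied by 12.3-fold, Bco1 by 16.6-fold, Lrat by 31.9-fold and Adh4 by 97.3-fold.

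Aldh1a1 encodes a cytosolic aldehyde dehydrogenase that makes retinoic acid from retinal and also clears other aldehydes. In RYGB livers it ranged from 227 CPM through a median of 290 to 477 CPM, against 65.2, 123 and 305 CPM in sham livers. Every one of the 14 RYGB libraries lay above the sham median, and 11 of the 12 sham libraries lay below the lowest RYGB library, so that the overlap rested on 1 sham library. The means were 320 ± 80.6 CPM in RYGB (SD, n = 14) and 146 ± 66.1 CPM in sham (SD, n = 12). The log2 fold change was 1.09 (SE 0.28) with an adjusted p of 0.0151 in edgeR's quasi-likelihood test, whose model included batch. It was the 1 member of 9 called in RYGB versus sham at an adjusted p under 0.05, where 3.12% of all genes were called. By gene set enrichment on these same samples, the study reported the KEGG pathway of retinol metabolism as upregulated after RYGB. Aldh1a1 belongs to retinol metabolism, so that its direction is not independent evidence for that result.

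Within batch A the Aldh1a1 groups did not overlap, at 227 to 477 CPM in 11 RYGB and 65.2 to 216 CPM in 7 sham libraries, as was the case for 0.462% of all genes tested (either direction). In batch B the 3 RYGB libraries held 336, 329 and 227 CPM, against 121, 305, 98.0, 170 and 125 CPM in the 5 sham libraries. The difference was 1.29 on the log2 scale in batch A and 0.87 in batch B, and the difference between batches, 0.43 (SE 0.57), did not pass the test (adjusted p = 0.903 in edgeR's quasi-likelihood test). In a fit of batch B alone, with 3 against 5 libraries, the log2 fold change of 0.87 had an adjusted p of 0.918 and was not called.

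Against BWM livers the Aldh1a1 difference was larger. BWM libraries held 38.7 to 160 CPM with a median of 82.7 CPM, and all 14 RYGB libraries lay above all 8 of them, a separation found for 0.084% of the genes tested (either direction). That share was taken with RYGB libraries of both batches, while BWM lies in batch A alone. It therefore cannot be set beside the shares within batch A given for sham and Lean. RYGB over BWM gave a log2 fold change of 1.83 (SE 0.33, adjusted p = 0.000437 in edgeR's quasi-likelihood test). Lean libraries held 41.1 to 127 CPM (median 107 CPM), again all below the lowest RYGB library. Within batch A, which holds all Lean libraries, 1.12% of genes separated RYGB from Lean in this way. Aldh1a1 had a log2 fold change of RYGB over Lean of 1.74 (SE 0.37, adjusted p = 0.00157 in edgeR's quasi-likelihood test). Saline libraries held 40.0 to 280 CPM (median 115 CPM) and overlapped with RYGB, with a log2 fold change of RYGB over saline of 1.14 (SE 0.33, adjusted p = 0.0358 in edgeR's quasi-likelihood test). This call held in 10 of 15 alternatives and was lost in batch A alone (0.93, adjusted p = 0.282) and in batch B alone (1.31, adjusted p = 0.508). It was also lost without any 1 of RYGB replicates 3, 12 and 13 or saline replicates 3, 4, 6, 7, 8 and 9, at adjusted p up to 0.114. The call over Lean held in 13 of 13 alternatives and without each of 20 libraries in turn.

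In the livers of drug-treated rats Aldh1a1 was spread widely. Liraglutide+PYY3-36 libraries ranged from 66.8 CPM through a median of 175 to 376 CPM, against 40.0, 115 and 280 CPM in saline. PYY3-36 libraries held 206, 160, 96.1, 98.8 and 315 CPM, and liraglutide libraries 75.4, 109, 188, 317 and 56.2 CPM. All 3 drug groups overlapped with saline, and 3 of 11 liraglutide+PYY3-36, 1 of 5 PYY3-36 and 1 of 5 liraglutide libraries lay above every saline library. On the log2 scale the difference from saline was 0.45 for liraglutide+PYY3-36 (95% interval -0.20 to 1.10), 0.42 for PYY3-36 (-0.38 to 1.22) and 0.19 for liraglutide (-0.61 to 0.99), and none passed the test (adjusted p = 0.560, 0.959 and 0.999 in edgeR's quasi-likelihood test). Without the 6 libraries apart the liraglutide difference turned to -0.37 and that of PYY3-36 to 0.00, and neither passed. The effect of RYGB over sham minus that of liraglutide+PYY3-36 over saline was 0.64 with an interval from -0.20 to 1.47 (adjusted p = 0.487 in edgeR's quasi-likelihood test), so that the effects were shown neither to differ nor to be alike.

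Ordered by mean, Aldh1a1 ran from RYGB at 320 CPM through liraglutide+PYY3-36 at 193, PYY3-36 at 175, liraglutide at 149, sham at 146, saline at 139 and Lean at 98.2 to BWM at 92.6 CPM. No neighbours in this order differed by edgeR's test, RYGB and liraglutide+PYY3-36 included (log2 fold change 0.70, SE 0.28, adjusted p = 0.160). Likewise 0 of the 63 neighbouring pairs over all 9 genes passed. Of the 28 pairs of groups 4 were called, and RYGB was the higher group in each, over sham, BWM, Lean and saline. The last 2 pairs called 3.88% and 2.85% of all genes. BWM had a log2 fold change of -0.74 against sham (SE 0.34, p = 0.0317, adjusted p = 0.99985 in edgeR's test) and Lean one of -0.65 (SE 0.37, adjusted p = 0.914), and neither passed.

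**Figure D2:**
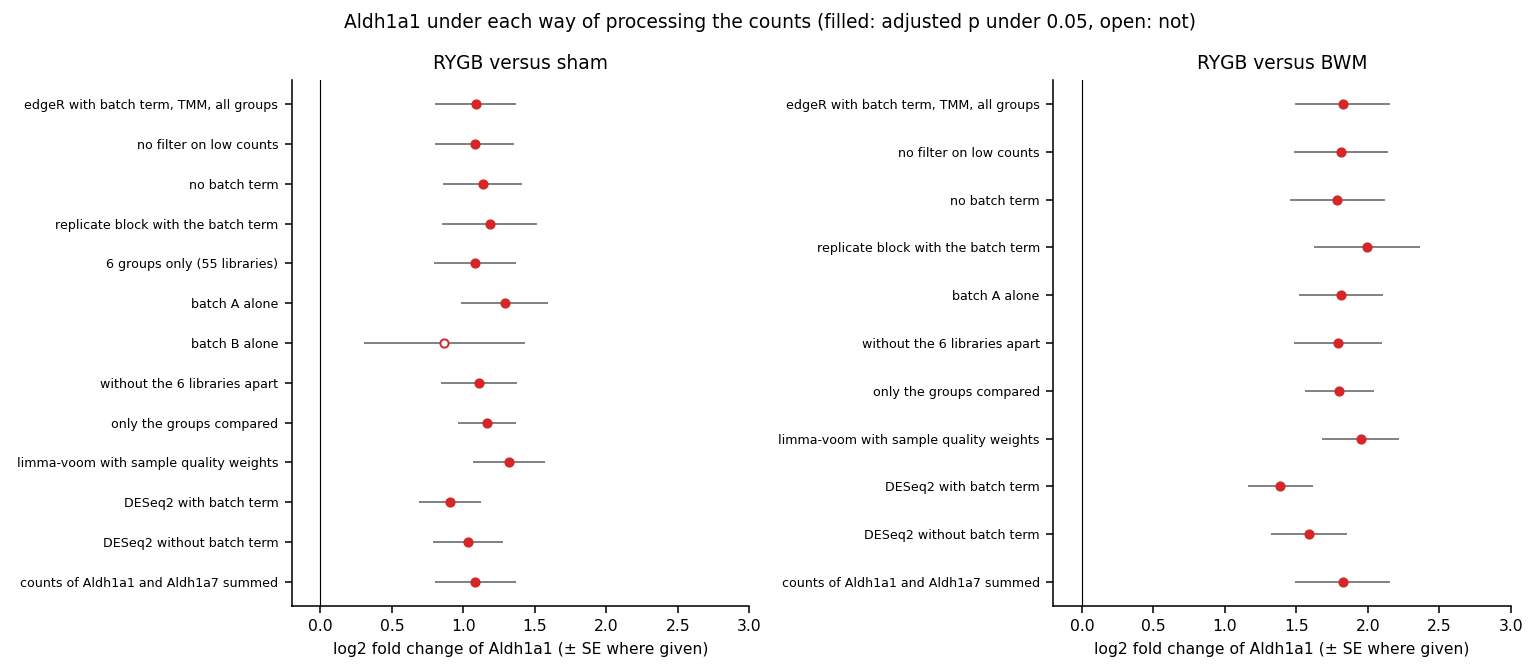
Log2 fold change of Aldh1a1 in RYGB versus sham (left) and RYGB versus BWM (right) under the main fit and a selection of the alternatives. Bars are 1 SE, and points are filled where the adjusted p was under 0.05. Every point lies right of 0, and the 1 open point is batch B alone at 0.87 in RYGB versus sham.

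Aldh1a7 is a close rodent paralogue of Aldh1a1 on the same chromosome (240584233 to 240601843, minus strand). Reads that matched several places were divided between them in the deposited counts, and 25 of its 69 values were not whole numbers, so its level may hold reads of Aldh1a1 and is uncertain. Its counts were 0 to 40 a library, with 0 in 12 libraries, at a median of 0.260% of the Aldh1a1 count in batch A and 0.0235% in batch B. In RYGB libraries it ranged from 0 through a median of 0.665 to 1.28 CPM, against 0.0851, 0.170 and 0.609 CPM in BWM. Batch A RYGB libraries alone held 0.412 to 1.28 CPM, and the 3 batch B ones 0, 0 and 0.150 CPM. For RYGB over BWM the log2 fold change was 1.59 (SE 0.42, adjusted p = 0.0313 in edgeR's quasi-likelihood test), and this call was lost without a batch term (adjusted p = 0.522, and 0.336 in DESeq2), without the low-count filter (0.0510) and without any 1 of BWM replicates 1 to 6 or RYGB replicate 4. With the counts of both paralogues added into 1 gene, RYGB versus sham gave 1.08 and RYGB versus BWM gave 1.83, near the values of Aldh1a1 alone. Aldh1a1 and Aldh1a7 were the 2 of 9 members called in RYGB versus BWM, where 1.27% of all genes were called.

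Of the members, the retinol and retinal oxidoreductases Adh4, Rdh10 and Dhrs3 passed the test neither in RYGB versus sham nor in RYGB versus BWM. Adh4, an alcohol dehydrogenase that can act on retinol, was at 4.66 CPM (lowest), 30.7 (median) and 179 CPM (highest) in RYGB libraries, against 2.43, 15.2 and 45.5 CPM in sham. In all, 4 RYGB libraries lay above every sham library, and the rest overlapped. RYGB over sham gave a log2 fold change of 0.93 (SE 0.44, adjusted p = 0.347 in edgeR's quasi-likelihood test). It was 1.45 within batch A and -0.19 within batch B, a difference of 1.64 (SE 0.85) that did not pass (adjusted p = 0.700). DESeq2 without a batch term called Adh4 in RYGB versus sham (shrunken log2 fold change 1.17, adjusted p = 0.0364). BWM libraries held 14.7 to 138 CPM and Lean libraries 11.5 to 94.5 CPM, and neither differed from sham by the test (log2 fold changes 0.94 and 0.46).

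Rdh10, the membrane enzyme that oxidises retinol in the first step toward retinoic acid, ranged over 3.15, 12.04 and 19.0 CPM (lowest, median, highest) in RYGB and 3.34, 12.1 and 20.1 CPM in sham. The groups overlapped throughout, and the log2 fold change was -0.13 (SE 0.14). Dhrs3, the reductase that returns retinal to retinol, held 78.4, 109 and 153 CPM in RYGB and 54.0, 112 and 165 CPM in sham. The log2 fold change was -0.05 with a 95% interval from -0.37 to 0.27. In a fit of batch A alone it was 0.04 (SE 0.099).

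Rbp4, the plasma carrier of retinol, was the most abundant of the 9 genes per kilobase and varied least between libraries. It held 3079, 6160 and 7061 CPM (lowest, median, highest) in RYGB and 3359, 5266 and 6778 CPM in sham, with a log2 fold change of 0.13 (95% interval -0.10 to 0.36). The PYY3-36 libraries held 6915, 5533, 5544, 5051 and 5910 CPM, and all 5 lay above the saline median, where saline ranged from 3159 through 4942 to 5751 CPM. This was a log2 fold change of 0.37 (SE 0.17, p = 0.0297), which did not pass adjustment over all genes (adjusted p = 0.947 in edgeR's quasi-likelihood test). Bco1, which cleaves beta-carotene, varied inside every group, from 2.78 through 7.69 to 20.4 CPM in RYGB and from 2.48 through 9.95 to 17.1 CPM in sham, with a log2 fold change of 0.01 (95% interval -0.72 to 0.74).

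Cyp26a1 hydroxylates retinoic acid for removal and was expressed at 0.404, 1.06 and 2.03 CPM (lowest, median, highest) in RYGB, against 0.0730, 0.728 and 1.86 CPM in sham. The groups overlapped over most of their range and the log2 fold change of 0.44 (SE 0.34) did not pass (adjusted p = 0.670 in edgeR's quasi-likelihood test). In Lean libraries Cyp26a1 held 0.807, 1.15 and 3.37 CPM, and all 6 lay above the sham median. Lean over sham gave a log2 fold change of 0.83 (SE 0.42, p = 0.0518, adjusted p = 0.817). Against liraglutide+PYY3-36, at 0.274 to 0.977 CPM, RYGB had a log2 fold change of 1.01 (SE 0.35, p = 0.00583), which also did not pass (adjusted p = 0.0963). The 95% interval of RYGB over sham ran from -0.23 to 1.11.

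Lrat, the enzyme that esterifies retinol for storage, was among the members in which single libraries weighed on group means. It held 6.89, 10.4 and 49.6 CPM (lowest, median, highest) in RYGB and 9.64, 12.8 and 134 CPM in sham. In all, 10 of 14 RYGB libraries lay below the sham median, and the groups overlapped. RYGB over sham gave a log2 fold change of -0.24 (SE 0.41, adjusted p = 0.898 in edgeR's quasi-likelihood test) and turned to 0.17 without the 6 libraries that stood apart. In the liraglutide+PYY3-36 livers Lrat held 7.56, 12.2 and 136 CPM, against 8.05, 13.5 and 23.0 CPM in saline. The log2 fold change of 0.91 (SE 0.49, adjusted p = 0.459) was -0.49 within batch A and 2.14 within batch B. The difference between batches was -2.63 (SE 0.86, p = 0.00383) and did not pass adjustment (adjusted p = 0.112). Without the 6 libraries apart the log2 fold change of liraglutide+PYY3-36 over saline was -0.20. The Lrat differences of PYY3-36 and liraglutide over saline, 0.31 and 0.53, were then -0.66 and 0.36.

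**Figure D3:**
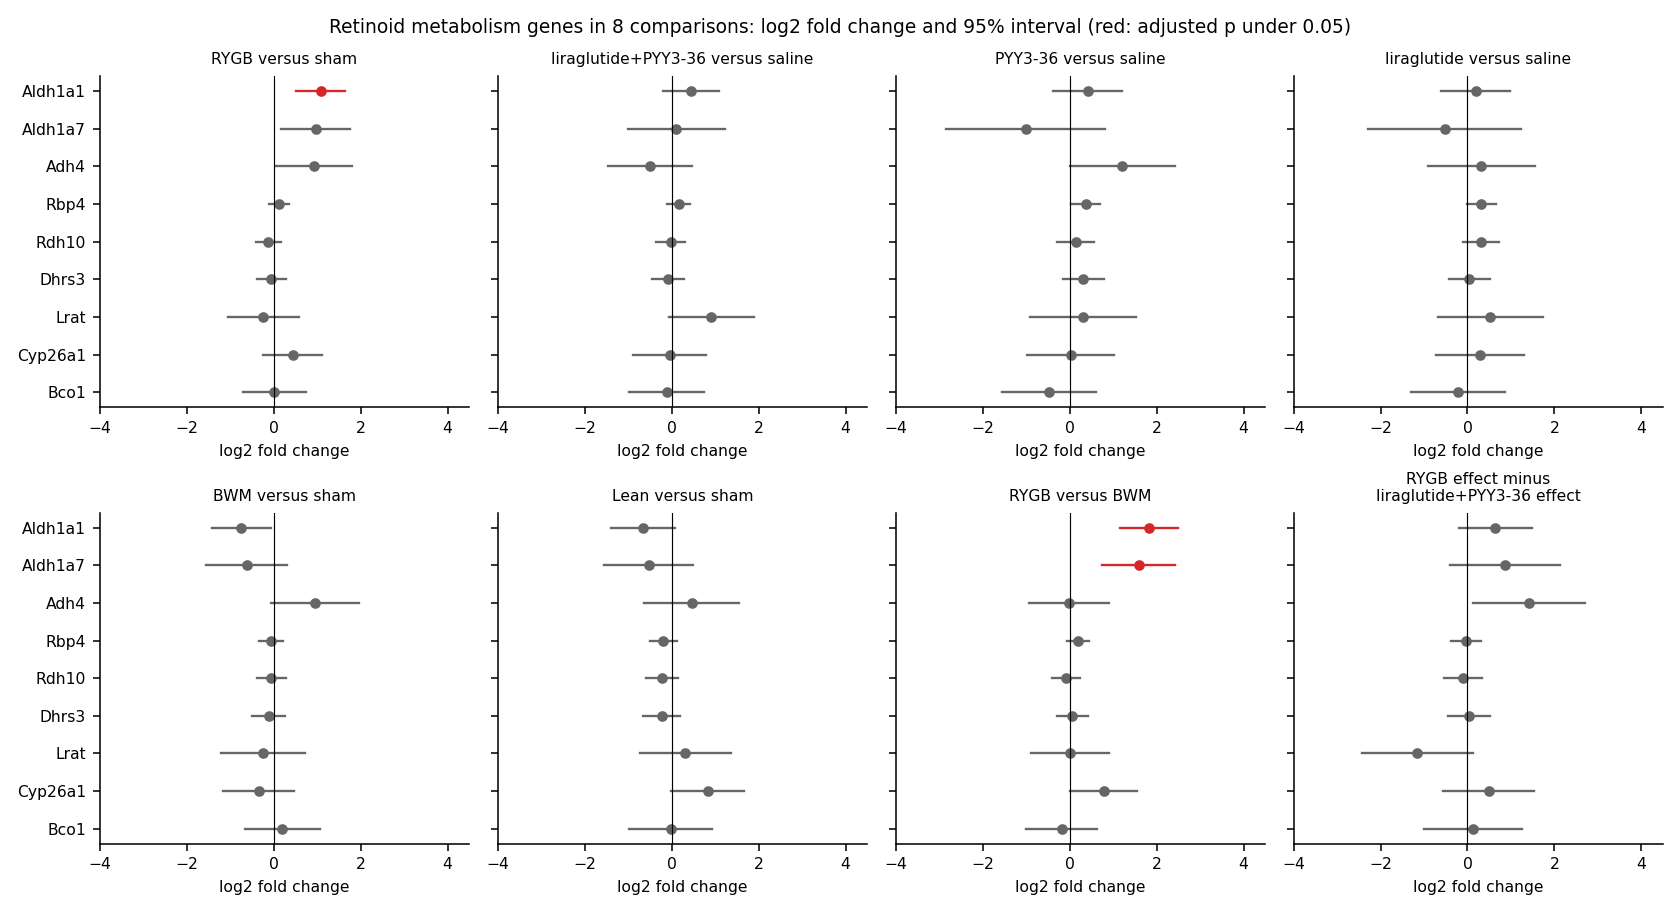
Log2 fold changes of the 9 genes with 95% intervals in the 8 comparisons, red where the adjusted p was under 0.05. Red points are Aldh1a1 in RYGB versus sham at 1.09, and Aldh1a1 at 1.83 and Aldh1a7 at 1.59 in RYGB versus BWM.

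In the other 6 comparisons no member passed edgeR's quasi-likelihood test. Liraglutide+PYY3-36 versus saline called 0.006% of all genes and 0 of 9 members, with 0 of 9 at an unadjusted p under 0.05 (10.9% of all genes). PYY3-36 versus saline called 0% of all genes and 0 members, with 2 at an unadjusted p under 0.05 (4.95% of all genes), Adh4 (log2 fold change 1.21, p = 0.0497) and Rbp4. Liraglutide versus saline called 0.006% and 0 members, with 0 at an unadjusted p under 0.05 (6.22% of all genes). BWM versus sham called 0.042% and 0 members, with Aldh1a1 as the 1 member at an unadjusted p under 0.05 (3.18% of all genes). Lean versus sham called 0.612% and 0 members, with 0 at an unadjusted p under 0.05 (6.07% of all genes). The difference between the effects of RYGB and of liraglutide+PYY3-36 called 0.036% and 0 members, with Adh4 as the 1 at an unadjusted p under 0.05 (12.3% of all genes), at 1.42 (SE 0.64, p = 0.0314). DESeq2 with and without batch and limma-voom with sample quality weights also called 0 members in each of these comparisons. RYGB, BWM and Lean were set against the same 12 sham libraries, and the drug groups against the same 8 saline libraries.

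The batches moved 5 of the 9 members, where 60.6% of all genes were called. Batch B was lower than batch A in Aldh1a7 (log2 fold change -3.07), Adh4 (-2.20), Rdh10 (-1.51) and Dhrs3 (-0.47) and higher in Lrat (1.28), where 26.9% of all genes were lower and 33.7% higher, at adjusted p from 1.04e-16 to 0.00149 in edgeR's quasi-likelihood test. Rdh10 was at 3.15 to 8.85 CPM in the 28 batch B and 6.96 to 21.5 CPM in the 41 batch A libraries. Aldh1a1 (-0.18, adjusted p = 0.484), Rbp4 (-0.19, adjusted p = 0.0730), Cyp26a1 (0.33) and Bco1 (0.33) were not called. Without the 6 libraries apart, where 63.2% of all genes were called, Lrat was at 0.29 and was not called (adjusted p = 0.205), and Dhrs3 was at -0.28 (adjusted p = 0.0102). Aldh1a7 (-2.75), Adh4 (-2.49) and Rdh10 (-1.40) were called lower there too, as was Rbp4 (-0.24, adjusted p = 0.0209). Means of Aldh1a7, Adh4 and Rdh10 in PYY3-36 and liraglutide, which lie in batch B alone, therefore cannot be set beside those of BWM and Lean, which lie in batch A alone.

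In the 6 libraries apart Lrat lay high and Dhrs3 low. Lrat held 134 CPM in sham replicate 12, 91.7 CPM in PYY3-36 replicate 5, 74.6 CPM in liraglutide replicate 4 and 136, 28.9 and 88.1 CPM in liraglutide+PYY3-36 replicates 8, 9 and 11. The other 22 batch B libraries held 4.27, 12.2 and 49.6 CPM (lowest, median, highest) and the 41 batch A libraries 6.86, 11.9 and 35.6 CPM, so that 5 of the 6 lay above every other library. Dhrs3 lay low in the same libraries, at 36.9, 50.1 and 54.0 CPM (lowest, median, highest) in the 6, against 44.8, 111 and 170 CPM in the other batch B and 92.6, 113 and 165 CPM in the batch A libraries.

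Bco1 was at 1.34, 3.82 and 6.40 CPM (lowest, median, highest) in the 6 and 3.24, 12.6 and 22.1 CPM in the other batch B libraries. Rdh10 was at 3.70, 4.21 and 4.97 CPM, against 3.15, 6.06 and 8.85 CPM. Cyp26a1 was at 0, 0.313 and 0.742 CPM, against 0.392, 0.908 and 2.42 CPM. All 3 had lower medians in the 6 libraries with overlapping ranges. Aldh1a1 had medians of 150 and 130 CPM and Rbp4 of 5902 and 5238 CPM in the 6 and the other batch B libraries. These values are a description, since the libraries were picked on the expression of all genes. Markers of stellate cells, in which retinyl esters are stored, summed to 386 to 765 CPM in the 6 and 145 to 621 CPM in the other 63 libraries, and 7 of 19 had a higher and 12 a lower median in the 6 than in the other batch B libraries. Their part, and that of the CAR and PXR targets, in the Lrat values was not tested.

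**Figure D4:**
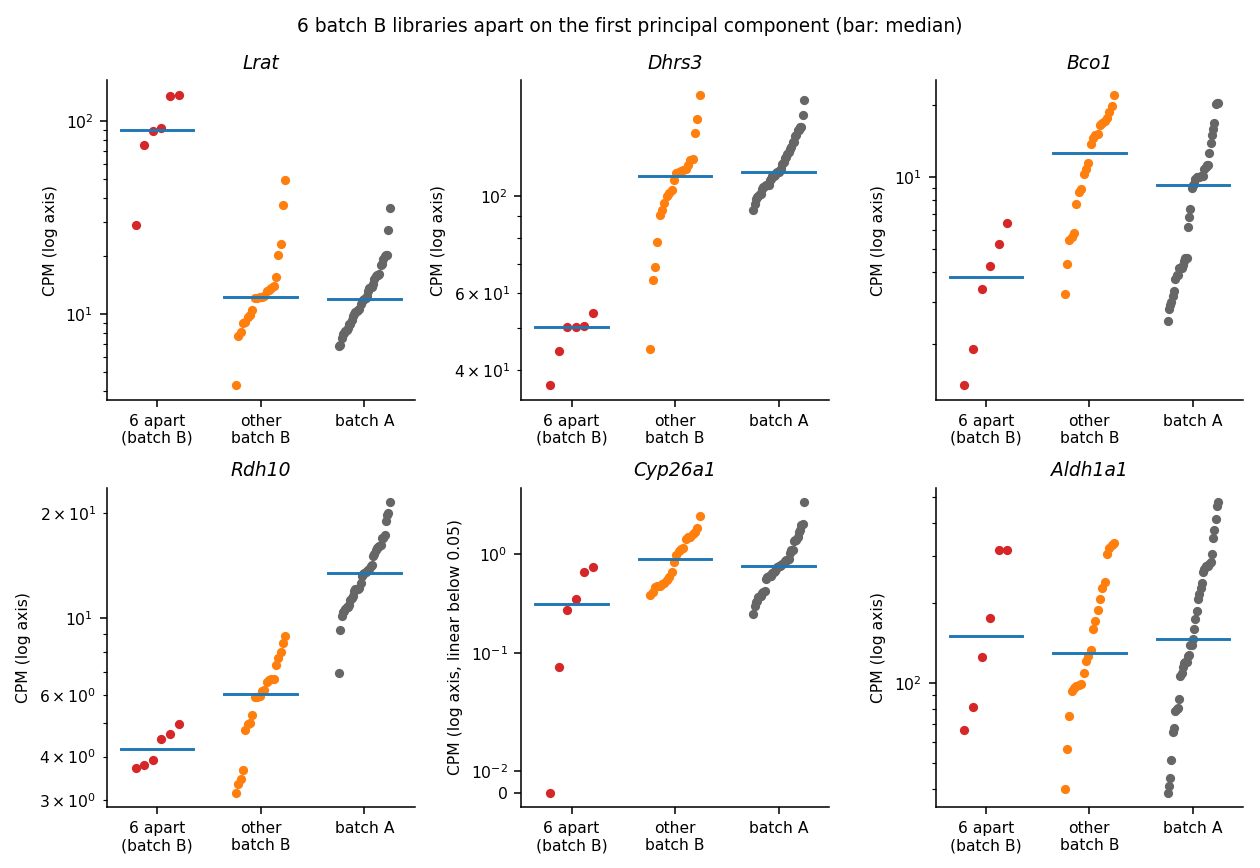
Levels of 6 of the genes in CPM (log axis, for Cyp26a1 linear below 0.05) in the 6 batch B libraries apart on the first principal component, the other 22 batch B libraries and the 41 batch A libraries, with a bar at the median. Lrat lies at 28.9 to 136 CPM in the 6 and at 4.27 to 49.6 CPM in the other batch B libraries, Dhrs3 lies lower in the 6, and Aldh1a1 overlaps throughout.

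With group and batch removed, the log2 CPM of Lrat and Dhrs3 had a correlation of -0.60 over the 69 libraries, 0.36 over batch A (n = 41) and -0.81 over batch B (n = 28), and -0.26 over the 63 libraries without the 6 apart. Aldh1a1 and Aldh1a7 had 0.41 over 69 libraries, 0.77 in batch A and -0.04 in batch B. The other 34 pairs lay between -0.41 and 0.49 over the 69 libraries. These are descriptions over libraries that share batches, with no test.

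The genes whose residual levels followed Aldh1a1 most closely over the 69 libraries were Cyp4a2 (r = 0.63), a fatty acid omega-hydroxylase, Ces2c (0.61), a carboxylesterase, Acsm5 (0.54), a medium-chain acyl-CoA synthetase, Aifm2 (0.50) and Vnn1 (0.49), the enzyme that splits pantetheine. The candidates were 10318 genes, with unnamed loci (symbols starting with LOC or RGD) passed over. Each correlation was positive in both batches, at 0.50 to 0.77 in batch A and 0.29 to 0.72 in batch B. In RYGB versus sham Cyp4a2 rose by a log2 fold change of 1.64 (adjusted p = 0.0112 in edgeR's quasi-likelihood test), Acsm5 by 1.70 (adjusted p = 0.00684) and Vnn1 by 2.12 (adjusted p = 8.76e-06). Ces2c (0.65, adjusted p = 0.107) and Aifm2 (0.14, adjusted p = 0.644) did not pass. Those closest to Cyp26a1 were Ciapin1 (0.64), Sptlc1 (0.62), Dhx38 (0.62), Rbfox2 (0.61) and Jund (0.60). Without the 6 libraries apart these 5 correlations were 0.43 to 0.55, and none of the 5 genes passed the test in RYGB versus sham.

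In the wider retinoid pathway, listed with earlier results of these data known, 2 of 56 distinct genes tested, or 3.57%, were called in RYGB versus sham, near the 3.12% of all genes. This is a count of called genes on another list, so that it cannot be set beside the study's gene set enrichment result for retinol metabolism. Among carriers and uptake 0 of 7 tested genes were called in RYGB versus sham, among retinol and retinal oxidoreductases 0 of 16, among retinoic acid breakdown and binding genes 0 of 4, among carotenoid genes 0 of 4, among retinoid receptors 0 of 6 and among retinoic acid target genes 0 of 10. Median log2 fold changes of these 6 lists lay between -0.13 and 0.53, beside -0.005 over all genes. Of the 7 retinal dehydrogenases Aldh1a1 alone was called, with a list median of 0.13. Among 9 retinyl ester genes Pnpla2, the triglyceride lipase that also acts on retinyl esters, rose to 28.7 CPM in RYGB, against 15.5 CPM in sham (log2 fold change 0.90, SE 0.17, adjusted p = 0.000397 in edgeR's quasi-likelihood test). Rxrg, a partner receptor of the retinoic acid receptors, was at 18.3 CPM in RYGB and 25.2 CPM in sham and did not pass (-0.38, adjusted p = 0.0697), nor did Ttr, the protein that carries RBP4 in plasma (-0.50, adjusted p = 0.0860).

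In Lean versus sham 3 of the 56 listed retinoid genes were called (5.36%, against 0.612% of all genes). Rbp7, a cellular retinol-binding protein, rose to 1.18 CPM in Lean, against 0.598 CPM in sham (log2 fold change 1.28, adjusted p = 0.0234 in edgeR's quasi-likelihood test). Fabp5, which binds fatty acids and retinoic acid, rose to 38.8 CPM, against 15.6 CPM (2.12, adjusted p = 0.00121). Dhrs9, a retinol dehydrogenase, fell to 0.0220 CPM, against 0.299 CPM (adjusted p = 0.0129), a level of hardly any reads, and no fold change is given. In a fit of Lean and sham libraries only, where 1 gene in all was called, Rbp7 (1.14, adjusted p = 0.445) and Fabp5 (1.74, adjusted p = 0.246) were not called and Dhrs9 did not pass the filter. Rbp7 was also lost in batch A alone (adjusted p = 0.139) and without any 1 of Lean replicates 1 and 6 or sham replicates 1 and 2, at adjusted p up to 0.209, and Dhrs9 without Lean replicate 3 or sham replicate 2 (0.0510 and 0.0525). All 3 were lost without a batch term. In RYGB versus BWM Dhrs9 was at 0.438 CPM, against 0.0956 CPM (adjusted p = 0.0262 in edgeR's quasi-likelihood test), again a level of few reads, and no fold change is given. The Dhrs9 call was lost without a batch term (0.194) and without any 1 of BWM replicates 1, 2, 7 and 8 or RYGB replicate 3. In BWM versus sham and in the drug comparisons none of the listed retinoid genes was called.

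Genes of the liver zones and of drug-responsive receptors were followed beside Aldh1a1. Of 15 CAR and PXR targets 3 rose in RYGB versus sham, where 3.12% of all genes were called in either direction, Cyp2b1 to 68.9 CPM, against 11.4 CPM (log2 fold change 2.17, adjusted p = 7.70e-05 in edgeR's quasi-likelihood test), Cyp2b2 (1.21) and Ugt2b1 (1.57), and Ephx1 fell (-0.94), in a call that held in 7 of 15 alternatives. In batch B alone Cyp2b1 was at -0.16 and Cyp2b2 at -0.35, and neither passed. Against BWM, where 1.27% of all genes were called, Cyp2b1 (2.03), Cyp2b2 (1.25) and Cyp2c6v1 (1.06) rose. Of 10 pericentral hepatocyte genes Cyp1a2 (1.14) and Rhbg (1.06) rose in RYGB versus sham, and of 10 periportal ones 0 were called. The pericentral genes summed to 4149, 8430 and 12462 CPM (lowest, median, highest) in RYGB and 2724, 5602 and 8695 CPM in sham, with both batches pooled. Within batch A they summed to 5604 to 12462 CPM in RYGB and 5477 to 8695 CPM in sham. Within batch B the ranges were 4149 to 5405 CPM in RYGB and 2724 to 6313 CPM in sham. Hepatocyte markers summed to 72528, 176070 and 300602 CPM in RYGB and 105767, 168982 and 225323 CPM in sham, and stellate cell markers to 213, 480 and 621 CPM in RYGB and 256, 411 and 765 CPM in sham. Of the hepatocyte markers 8 of 10 had a negative log2 fold change in RYGB versus sham (median -0.20), with Ahsg called (-0.41), and of the T and NK cell markers 8 of 8 (median -0.34), with none called. Of the Kupffer cell markers 11 of 11 had a positive log2 fold change in RYGB versus sham (median 0.28), with Vsig4 called, in a call that held in 7 of 15 alternatives, and of the blood markers 7 of 7 a negative one (median -0.71), with none called. The part of these values in the Aldh1a1 difference was not tested.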

How the data were processed

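Liver poly(A) libraries of 69 rats were read single-end. The authors demultiplexed with bcl2fastq 2.20.0.422, trimmed with cutadapt 2.5, aligned with STAR 2.7.2b to Rnor_6.0 and counted exons per gene by strand with featureCounts 1.6.4. Deposited were estimated counts, in which the authors divided multi-mapping reads among places, so that 15.9% were not whole. They were not normalized. Reads of near-identical genes such as Aldh1a1 and Aldh1a7 can therefore be shared.

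Groups and batches came from the labels. Counts were rounded, filtered with filterByExpr (16676 of 38513 genes kept), scaled by TMM and fitted once over all 69 libraries with group and batch in the model in edgeR 4.0.16 (robust quasi-likelihood test, R 4.3.3), so that all groups shared 1 estimate of the spread. Genes were called at a Benjamini-Hochberg adjusted p under 0.05 over all genes tested, and intervals are at 95%. CPM are TMM-scaled. Total counts were 9110860 to 27559144 per library. No 2 libraries held identical counts. Alternatives used DESeq2 1.42.0 with shrunken fold changes, limma-voom with sample quality weights (limma 3.58.1), other filters, scalings and samples. The script was tested on simulated data.

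All 9 genes were named. Other listed genes were named where called, at most the 4 with the lowest p per list and comparison, or as counter-examples. Rxrg and Ttr, which did not pass, were chosen after their values were seen. For Aldh1a1 and Cyp26a1 the 5 genes with the highest correlation of residual log2 CPM (prior count 2) were named. Candidates were genes of average log2 CPM 1 or more, without unnamed LOC and RGD loci. Alternatives for named genes outside the 9, for Aldh1a1 against Lean and saline and for the batch difference were chosen after seeing the data. The 9 genes, the lists and the 6 libraries apart were chosen with earlier results of these data known. Promoters and their letters came from RefSeq on GRCr8, and none of its coordinates was combined with those of the counts.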

Additional observations from a re-analysis of the deposited data

Results flagged for a closer look

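In 6 of 45 groups of values 1 library lay far above the others of its group by Dixon's criterion. Chance meets it in about 1 in 20 groups where values are normally distributed. The criterion was applied to CPM without logs, and the groups of values shared libraries, so that this rate is only a rough guide. RYGB, sham and liraglutide+PYY3-36 held more libraries than the cut-offs covered and were not examined. Lrat was at 91.7 CPM in PYY3-36 replicate 5, and the next library of that group was at 15.5 CPM. This library is 1 of the 6 that stood apart on the first principal component. Cyp26a1 was at 3.37 CPM in Lean replicate 5, with the next at 1.49 CPM, and at 2.42 CPM in liraglutide replicate 2, with the next at 0.668 CPM. Saline replicate 2 was high in Adh4, at 111 CPM with the next at 24.3 CPM, and in Aldh1a7, at 0.896 CPM with the next at 0.411 CPM. It is 1 of 3 batch A libraries in that group of 8, and both genes were higher in batch A, and the chance rate takes no account of batch. Dhrs3 was at 133 CPM in Lean replicate 4, with the next at 109 CPM. Of 27 tests of a difference between effects, for surgery against drugs and for batch A against batch B, 0 passed in edgeR's quasi-likelihood test.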

How the results depend on the processing

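No called value of the 9 genes changed direction in the 8 comparisons under the alternatives run. Of the other genes called, Cyp2b1 (-0.16) and Cyp2b2 (-0.35) turned in batch B alone in RYGB versus sham, and the cause was not tested. In that comparison Vsig4 passed without 6 of 26 single libraries, Ephx1 without 17, Rhbg without 22 and Ahsg without 23, and Pnpla2, Cyp2b1, Cyp2b2, Ugt2b1, Cyp1a2, Cyp4a2, Acsm5 and Vnn1 without each of 26. In RYGB versus sham the count of called genes among the 9 was 1, against 0 in batch B alone, 2 with limma-voom with sample quality weights (Aldh1a7 added, log2 fold change 1.07, adjusted p = 0.0137) and 2 with DESeq2 without a batch term (Adh4 added). Aldh1a1 passed in 15 of 16 alternatives (0.87 to 1.32) and in 26 of 26 fits that left out 1 library (0.99 to 1.24). In RYGB versus BWM the count was 2, against 1 without the filter on low counts, 1 without a batch term, 1 with DESeq2 without a batch term, and 1 to 2 when 1 library was left out. Aldh1a1 passed there throughout (14 of 14 and 22 of 22), and Aldh1a7 in 10 of 13 and 15 of 22. In the other 6 comparisons the count was 0 throughout. The labels do not say whether replicate numbers pair the libraries. In RYGB and sham, correlations were -0.383 to 0.191 over 12 pairs, with 3 libraries closest to their own number and 4 over the limit of 0.1. In liraglutide+PYY3-36 and saline they were -0.155 to 0.303 over 8 pairs, with 3 closest and 4 over. In Lean and sham they were 0.021 to 0.42 over 6, with 4 closest and 3 over, so that pairing was not excluded. The fit with the replicate number as a block, with the batch term, gave 1 called gene in RYGB versus sham, 2 in RYGB versus BWM and 0 elsewhere. Over all genes, calls in RYGB versus sham numbered 520, against 24 in batch B alone and 1576 with limma-voom with sample quality weights. In RYGB versus BWM there were 212, and 152 to 830 in the alternatives. In Lean versus sham there were 102, and 1 to 180. In BWM versus sham there were 7, and 7 to 38. In the drug comparisons there were 0 or 1, and at most 20, or 56 for liraglutide with 1 library left out. The difference between the effects of RYGB and liraglutide+PYY3-36 had 6, and 1 to 52. Counts were lowest in Aldh1a7 and Cyp26a1, with medians of 4 and 17 a library.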
